A study of Mus musculus with 6 samples.

Results

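The genes described here encode the MLL/SET1 family of histone methyltransferases and the core subunits that these enzymes share. They were taken from the annotated gene table by symbol. All 10 were found among its 22322 genes. They comprise 6 methyltransferases (Kmt2a, Kmt2b, Kmt2c, Kmt2d, Setd1a and Setd1b) and the 4 subunits of the WRAD core (Wdr5, Rbbp5, Ash2l and Dpy30). RNA was sequenced from sorted CD4+CD8+ double-positive (DP) thymocytes of untreated mice on the C57BL/6 background, aged 4 to 7 weeks. The control group was 3 libraries labelled WT-DP. By the methods, the controls of every experiment were Paxbp1 fl/fl littermates, which the labels do not state. The other group was 3 libraries labelled Lck-KO-DP, from Paxbp1 cKO mice (Paxbp1 fl/fl Lck-cre). In these mice the transgene acts in the T cell lineage from an early stage and removes exon 8 of Paxbp1. The Lck-cre transgene was present only in the cKO group, so that its presence and the loss of exon 8 cannot be told apart. Neither the labels nor the methods say whether each library came from a separate mouse, so the p-values measure the spread between these libraries, which may be in part technical.

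Methylation of lysine 4 on histone H3 (H3K4) marks active regulatory DNA. The SET domain of an MLL or SET1 protein carries out the reaction, and the enzyme is weak until it is bound by WDR5, RBBP5, ASH2L and DPY30, whose initials give the WRAD core its name. SETD1A and SETD1B are known for trimethylation at active promoters, KMT2A (MLL1) and KMT2B (MLL2) for promoters of developmental genes such as the HOX clusters, and KMT2C (MLL3) and KMT2D (MLL4) for monomethylation at enhancers. Paxbp1 is known as an adaptor that joins the muscle factors PAX3 and PAX7 to such a complex. The comparison asks whether genes of this machinery differed in level in DP thymocytes of Paxbp1 cKO mice.

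The libraries held between 18963775 and 26252248 counts, and the 11488 genes that passed the filter on low counts were compared by edgeR. All 10 members passed. Paxbp1 itself ranged from 15.5 to 40.1 CPM (counts scaled to library size, here with TMM factors) in control libraries and from 38.8 to 49.6 CPM in the libraries labelled cKO (log2 fold change 0.92 with a standard error of 0.33, edgeR adjusted p = 0.0977). These are counts over the whole gene and not over exon 8, so they do not check the labels. The paper assayed Paxbp1 RNA by qPCR and reverse transcription PCR in thymocyte subsets that included DP cells. It reports reduced mRNA in early thymocytes of cKO mice, with deletion complete before the DP stage. It also reports efficient loss of the protein in sorted DP cells by western blot. Why the whole-gene counts were not lower was not tested. Of 10 markers of DP thymocytes, all 10 were detected in every library, with a summed level of 10602 to 12783 CPM in control libraries and 7761 to 9444 CPM in cKO libraries. Rag1, Cd3e and Cd8b1 fell. Markers of macrophages summed to 6.79 to 23.8 CPM in control and 43.7 to 63.4 CPM in cKO libraries. Of these 8 markers 4 rose, Adgre1 had 0 counts in every control library and 42 to 52 in cKO libraries, and Mertk had 0 counts in all 6. Markers of B cells summed to 40.9 to 45.1 CPM in control and 25.5 to 28.8 CPM in cKO libraries, nearly all from Cd79b, which fell. Those of dendritic cells reached at most 3.85 CPM in any library, and those of erythroid cells 17.5 to 98.4 CPM in control and 0.685 to 33.3 CPM in cKO libraries. Whether these shifts take part in the results below was not tested. In bulk RNA, fewer cells of a type and less RNA per cell cannot be told apart.

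Among the 10 members, only Kmt2d passed an edgeR adjusted p of 0.05, and it fell in the cKO libraries. No member passed in the other direction. A change beyond 1 on the log2 scale, in either direction, was met by 0 members. Over all tested genes 10.4% had an adjusted p below 0.05 in either direction and 5.89% were lower, so that 1 of 10 members lay at the background share. For calls that also pass that fold, the background share was 2.76%. At an unadjusted p below 0.05, 1 member was higher (Setd1a) and 2 were lower (Kmt2d and Ash2l), beside 13.3% of all tested genes higher and 14.6% lower. DESeq2 and limma-voom also called 0 members higher and 1 lower (Kmt2d), beside 8.22% higher and 8.44% lower of all genes with DESeq2 and 5.22% and 6.24% with limma-voom. The median log2 fold change of the members was -0.05, against -0.0017 over all tested genes. The control and cKO libraries did not overlap for 4 members (Setd1a and Wdr5 above, Kmt2d and Ash2l below), where this held for 33.0% of all tested genes (15.7% with cKO above and 17.3% with cKO below).

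**Figure D1:**
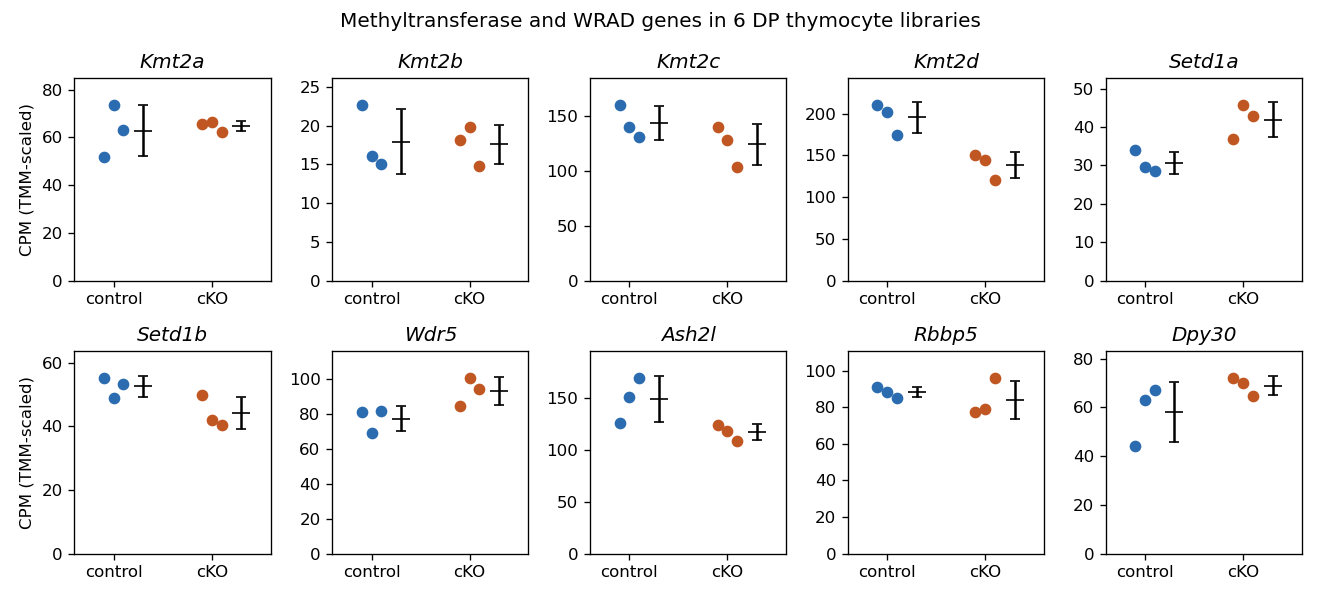
Level of each of the 10 members in every library, in CPM scaled by TMM on an axis from 0, with control libraries in blue and cKO libraries in orange. The black bar is the mean and S.D. of 3 libraries. For Kmt2d the cKO libraries lie between 121 and 151 CPM, below the control libraries at 175 to 211 CPM.

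Kmt2d (ENSMUSG00000048154) lies on the minus strand of chromosome 15 of GRCm38 from 98831669 to 98871204, and its longest coding transcript has 55 exons and 19823 nt (GENCODE release M21). It encodes KMT2D (MLL4), an enhancer methyltransferase. Kmt2d had 211, 202 and 175 CPM in control libraries 1, 2 and 3, and 151, 145 and 121 CPM in cKO libraries 1, 2 and 3. Every cKO library lay below every control library. The means were 196 ± 18.5 and 139 ± 15.8 CPM (S.D., n = 3 each), and the edgeR fit put the difference at -0.50 on the log2 scale (standard error 0.13, 95% interval -0.78 to -0.21, adjusted p = 0.0375), so that Kmt2d fell by 29.1%. DESeq2 and limma-voom called the same decrease (-0.49 with adjusted p = 0.00847 and -0.50 with adjusted p = 0.0330). The call did not withstand the loss of single libraries. Without control library 2, cKO 1, cKO 2 or cKO 3 the edgeR adjusted p was 0.117, 0.0769, 0.0790 and 0.161, although the log2 fold change stayed between -0.41 and -0.57 whichever of the 6 libraries was left out. In the same order, the number of all tested genes called lower fell from 677 to 235, 286, 413 and 78. It was 1030 without control 1 and 351 without control 3, where Kmt2d still passed.

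Kmt2c (ENSMUSG00000038056, minus strand of chromosome 5 from 25271798 to 25498783) encodes the paralog of KMT2D that serves the same kind of complex. It had 161, 140.3 and 131 CPM in the control libraries, and 140.4, 129 and 104 CPM in the cKO libraries. The groups overlapped. The log2 fold change was -0.21 (95% interval -0.52 to 0.10, edgeR adjusted p = 0.365). It was -0.13 without control 1 and -0.10 without cKO 3. A decrease of the size seen in Kmt2d therefore lies inside the interval for Kmt2c. Their upstream sequences are shown because Kmt2d was the only member called and Kmt2c is its paralog. Each is the 250 bases before the RefSeq start of the gene on GRCm38.p6, 5′ to 3′ on the strand of the gene, with every CpG (CG, which reads the same on both strands) in capitals. CpG is the dinucleotide that the CXXC domains of KMT2A, KMT2B and the SET1 subunit CXXC1 bind when it is unmethylated. The window of Kmt2d is chr15:98871206-98871455 and that of Kmt2c is chr5:25498784-25499033, both on the minus strand.
Kmt2d: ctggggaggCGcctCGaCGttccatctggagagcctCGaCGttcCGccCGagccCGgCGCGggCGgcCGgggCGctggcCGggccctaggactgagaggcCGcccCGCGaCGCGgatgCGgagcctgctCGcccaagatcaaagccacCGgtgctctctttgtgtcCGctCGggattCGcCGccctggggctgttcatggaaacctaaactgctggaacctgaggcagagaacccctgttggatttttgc
Kmt2c: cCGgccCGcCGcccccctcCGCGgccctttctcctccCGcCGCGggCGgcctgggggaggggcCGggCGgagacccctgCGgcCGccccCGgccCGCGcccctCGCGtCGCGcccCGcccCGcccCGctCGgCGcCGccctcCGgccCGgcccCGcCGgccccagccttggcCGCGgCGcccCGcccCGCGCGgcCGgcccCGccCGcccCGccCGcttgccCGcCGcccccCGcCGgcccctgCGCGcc
The Kmt2d window held 26 CpG, more than 90.4% of the 32851 RefSeq windows of this length, and the Kmt2c window held 48, more than 99.8%. The median window had 6 CpG, and 92.1% had at least 1. RefSeq promoter windows were matched for 7 members. Setd1a had 25 CpG, Kmt2a 29, Wdr5 12 and Rbbp5 10, while the 4 windows of Dpy30 held between 1 and 34. These counts describe the sequence only, since methylation and binding were not measured.

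Setd1a and Setd1b encode the catalytic subunits of the SET1 complexes, and their levels lay on opposite sides of 0. Setd1a (ENSMUSG00000042308) is on the plus strand of chromosome 7 from 127776670 to 127800122. It had 34.0, 29.6 and 28.5 CPM in the control libraries and 37.0, 45.8 and 43.0 CPM in the cKO libraries. All cKO libraries were above all control libraries, with cKO 1 nearest to them. The log2 fold change was 0.45 (standard error 0.16, 95% interval 0.11 to 0.79), which did not pass (edgeR adjusted p = 0.0902). It passed only without control library 1 (log2 fold change 0.53, edgeR adjusted p = 0.0451). The exons of Setd1a share 51.8% of their bases with Gm49388, an annotated locus on the same strand, which had 2 counts in cKO 3 and 0 in the other libraries. Setd1b (ENSMUSG00000038384, plus strand of chromosome 5 from 123142193 to 123168629) had 55.2, 48.9 and 53.4 CPM in the control libraries, and 49.8, 42.1 and 40.4 CPM in the cKO libraries. Only cKO 1 reached into the control range. Its log2 fold change was -0.25 (95% interval -0.57 to 0.06, edgeR adjusted p = 0.282).

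Kmt2a and Kmt2b, the methyltransferases that menin binds, had the smallest differences among the 6 enzymes. Kmt2a (ENSMUSG00000002028, minus strand of chromosome 9 from 44803355 to 44881296) had 51.9, 73.6 and 63.0 CPM in the control libraries, and 65.5, 66.3 and 62.2 CPM in the cKO libraries. The control libraries spanned the whole range of the cKO libraries. Its log2 fold change was 0.04 (95% interval -0.29 to 0.37, edgeR adjusted p = 0.892). Kmt2b (ENSMUSG00000006307, minus strand of chromosome 7 from 30568858 to 30588726) was the lowest of the 10 members in CPM, with 22.7, 16.1 and 15.1 CPM in the control libraries and 18.2, 19.8 and 14.8 CPM in the cKO libraries. Here too the groups overlapped (log2 fold change -0.03, 95% interval -0.52 to 0.46, edgeR adjusted p = 0.955). Control library 1 had the lowest Kmt2a and the highest Kmt2b of the 6 libraries, and without it both differences changed sign (-0.081 and 0.17 on the log2 scale).

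**Figure D2:**
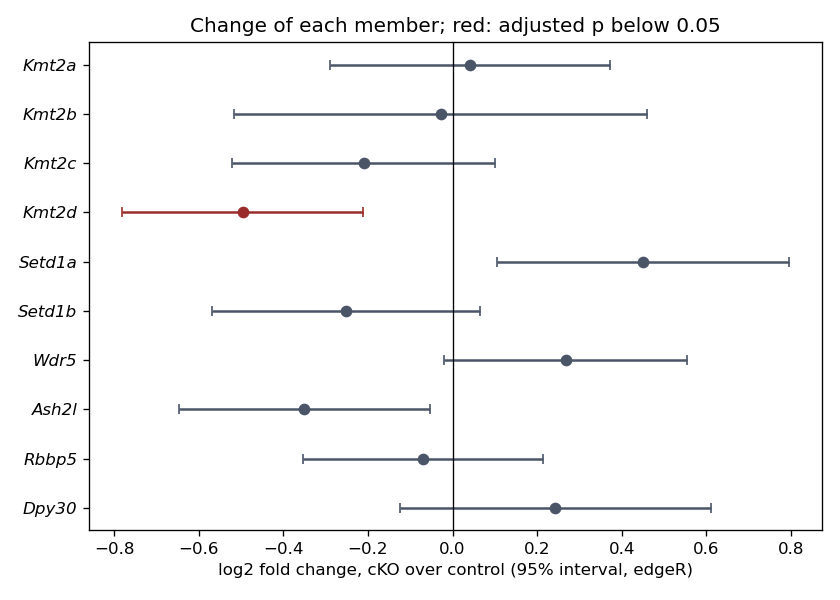
Log2 fold change of each member, cKO over control, with its 95% interval from the edgeR fit. Kmt2d (red) is at -0.50 and is the only member with an adjusted p below 0.05, while the intervals of Setd1a and Ash2l also leave out 0 before adjustment.

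Of the WRAD core, no subunit passed the test, and the 4 genes were divided in direction. Ash2l (ENSMUSG00000031575, minus strand of chromosome 8 from 25815996 to 25847694), whose product activates the enzyme together with RBBP5, had 126, 151 and 169 CPM in the control libraries, and 123, 118 and 108 CPM in the cKO libraries. The highest cKO library lay just under the lowest control library. The log2 fold change was -0.35 (standard error 0.13, 95% interval -0.65 to -0.05, edgeR adjusted p = 0.119), and it passed only without control library 1 (-0.46, edgeR adjusted p = 0.0188). Wdr5 (ENSMUSG00000026917, plus strand of chromosome 2 from 27515157 to 27536535) encodes the WD40 protein that docks the methyltransferase on the core. It had 81.1, 69.2 and 81.8 CPM in the control libraries and 84.5, 101 and 94.2 CPM in the cKO libraries. The groups did not overlap, but the gap between cKO 1 and control 3 was smaller than the spread within either group (log2 fold change 0.27, 95% interval -0.02 to 0.55, edgeR adjusted p = 0.210).

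Rbbp5 (ENSMUSG00000026439, plus strand of chromosome 1 from 132477365 to 132505659) had 91.1, 88.6 and 85.3 CPM in the control libraries, and 77.6, 78.8 and 96.1 CPM in the cKO libraries. The library cKO 3 was the highest of all 6 and the other cKO libraries the lowest (log2 fold change -0.07, 95% interval -0.35 to 0.21, edgeR adjusted p = 0.774). Dpy30 (ENSMUSG00000024067, minus strand of chromosome 17 from 74299474 to 74323944) encodes a small protein that binds ASH2L. It had 44.3, 63.1 and 67.0 CPM in the control libraries, and 72.2, 69.8 and 64.5 CPM in the cKO libraries. Control library 1 stood below the other 5, and without it the log2 difference was 0.079 (all libraries: log2 fold change 0.24, 95% interval -0.12 to 0.61, edgeR adjusted p = 0.377).

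Levels of different genes were compared per length. In FPKM as deposited (scaled to gene length and library size), Dpy30 led with a mean of 87.7 ± 14.1 over the 6 libraries (S.D.) and overlapped Ash2l at 54.8 ± 9.11, while no library of Ash2l overlapped Rbbp5. Rbbp5, Wdr5, Setd1a and Kmt2c came next, with means of 30.4, 29.6, 28.0 and 19.7 FPKM, and each overlapped its neighbour among these in this order. The place of Setd1a depended on the group. Its mean of 23.2 FPKM in control libraries was below those of Wdr5 and Rbbp5, while its 32.7 FPKM in cKO libraries was above the 30.4 FPKM of Rbbp5 and beside the 32.6 FPKM of Wdr5. Kmt2d, Setd1b and Kmt2a, at 8.72, 5.68 and 4.80 FPKM, lay below every library of Kmt2c. Setd1b overlapped both Kmt2d and Kmt2a, which did not overlap each other, and Kmt2b was lowest at 2.43 FPKM, below every library of Kmt2a. The deposited FPKM imply a length for each gene, which was computed from the counts and library totals. For Kmt2d this was 19.2 kb on average, close to its 19.8 kb transcript, but for Setd1a it was 1.24 to 1.37 kb where the longest coding transcript has 6.49 kb, and for Kmt2c 6.84 kb where that transcript has 15 kb. The deposited FPKM of Setd1a and Kmt2c therefore lie above what the full-length transcripts would give.

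With the counts divided by the length of the longest coding transcript, Setd1a dropped to a mean of 5.60 ± 1.08 CPM per kb (S.D. over the 6 libraries), next to Setd1b at 5.46 ± 0.67. On this scale all 4 WRAD subunits (25.5 to 80.5 CPM per kb) lay above all 6 methyltransferases (2.10 to 8.97 CPM per kb), and no library of Rbbp5, at 22.9 or more, overlapped any of Kmt2c, at 10.7 or less. The WRAD transcripts had at most 3.38 kb and the methyltransferase transcripts at least 6.49 kb. A difference in level and an effect of length on coverage cannot be told apart here. Kmt2c and Kmt2d led the enzymes with 8.97 ± 1.24 and 8.44 ± 1.76 CPM per kb and overlapped each other. On both scales Dpy30 was highest and Kmt2b lowest.

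**Figure D3:**
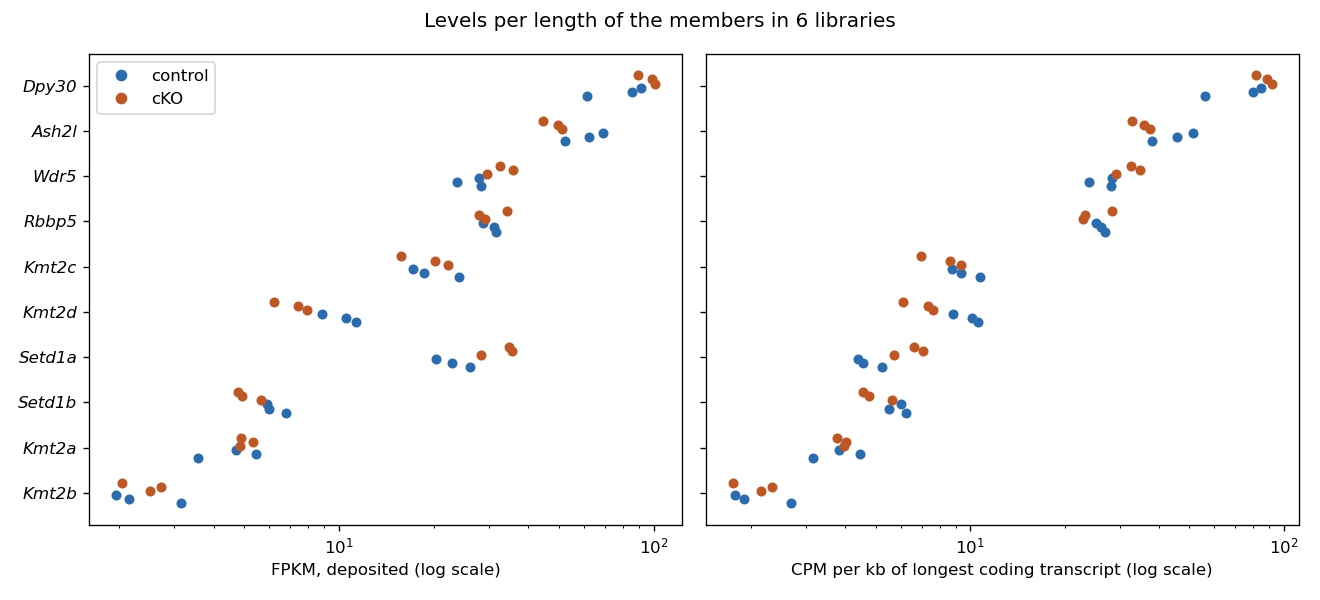
Level per length of each member in 6 libraries on log axes, as deposited FPKM (left) and as CPM per kb of the longest coding transcript (right), with control libraries in blue and cKO libraries in orange. Setd1a moves from 20.4 to 35.4 FPKM on the left to 4.39 to 7.06 CPM per kb on the right, among the other methyltransferases.

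The make-up of the methyltransferase transcripts was described by the share of each enzyme in their sum per length, with no test. On the scale of full-length transcripts Kmt2d made up 27.5, 28.3 and 26.3% in control libraries and 22.1, 21.5 and 20.5% in cKO libraries. The share of Setd1a was 13.6, 12.7 and 13.1% in control and 16.6, 20.7 and 22.3% in cKO libraries. For these genes the groups did not overlap. The shares of Kmt2c and Setd1b overlapped between groups, with means of 26.6 and 16.5% in control and 25.3 and 15.2% in cKO libraries, and Kmt2a and Kmt2b had 10.6 and 5.84% in control and 12.0 and 6.33% in cKO libraries. By deposited FPKM the directions for Kmt2d and Setd1a were as above, with mean shares of 15.4 and 9.98% for Kmt2d and of 34.7 and 45.6% for Setd1a (control and cKO). On that scale the groups were apart for Setd1b too, with 9.02 to 10.01% in control and 6.48 to 7.95% in cKO libraries. The sum of the 6 enzymes over the sum of the WRAD core was 0.344 ± 0.082 in control and 0.346 ± 0.011 in cKO libraries by deposited FPKM (S.D., n = 3 each). It was 0.214 ± 0.042 and 0.182 ± 0.011 per full-length transcript, and by both measures control 1 was highest and the groups overlapped, with cKO 3 below every control library on the second.

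The ratio of paralog counts within a library does not depend on library scaling. It was taken for the 3 pairs after their values had been seen. Kmt2c over Kmt2d was 0.763, 0.696 and 0.749 in control libraries and 0.932, 0.888 and 0.863 in cKO libraries. Setd1a over Setd1b was 0.616, 0.604 and 0.534 in control libraries and 0.742, 1.09 and 1.06 in cKO libraries. For both pairs every cKO library lay above every control library. Kmt2d and Setd1a were already apart between groups on their own, so the ratios add no separate support. The share of other gene pairs that lie apart in this way was not computed. The log2 ratio differed by 0.28 and 0.70, and the exact two-sided permutation test gave p = 0.1 for each (Benjamini-Hochberg adjusted p = 0.15 over 3 pairs), which is the smallest p that 3 libraries against 3 allow. Kmt2a over Kmt2b ranged from 2.28 to 4.58 in control and from 3.35 to 4.20 in cKO libraries (difference 0.07 in log2, exact permutation p = 0.9, adjusted p = 0.9).

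**Figure D4:**
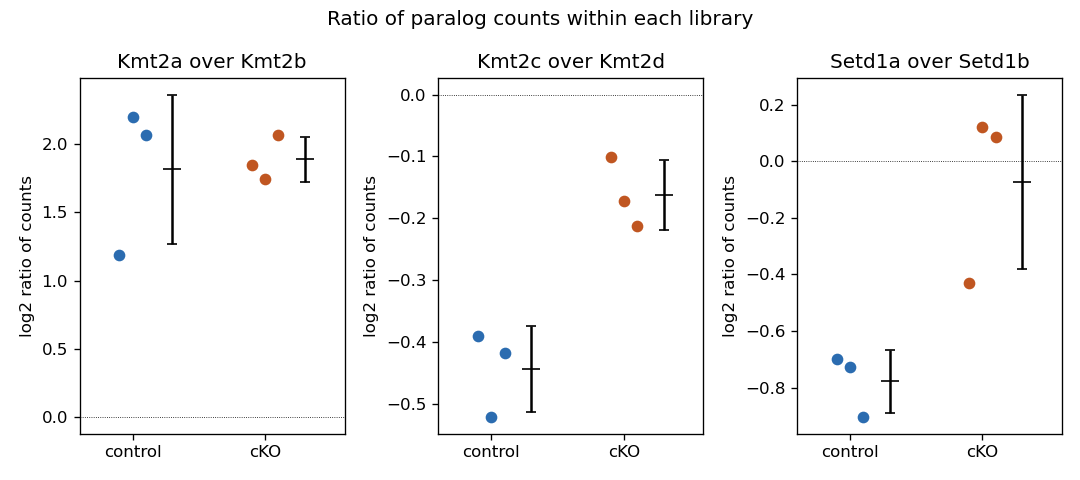
Log2 ratio of the counts of 3 paralog pairs within each library, control in blue and cKO in orange, with the mean and S.D. of 3 libraries in black. The vertical axes differ between panels. The groups are apart for Kmt2c over Kmt2d and for Setd1a over Setd1b, and overlap for Kmt2a over Kmt2b.

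The transcript of Kmt2d is among the longest measured. Of 11375 tested genes with a coding transcript in GENCODE, 262 had one of 10000 nt or more. Their median log2 fold change was -0.06, and 13 of them (4.96%), Kmt2d included, were lower at an edgeR adjusted p below 0.05. Among 2851 genes under 2000 nt the median was 0.01 and 5.33% were lower. Of the 262, 3 were higher. Over all tested genes 4.47% were higher and 5.89% lower. Of 347 genes from 8000 to below 10000 nt, 18 were higher and 17 lower. The largest share lower, 6.77%, was among genes from 2000 to below 4000 nt. The difference of -0.50 for Kmt2d lay below the lower quartile of the genes of 10000 nt or more, -0.29. Kmt2d was taken up here because it was called lower, so this place follows in part from that choice. Whether length takes part in the difference was not tested further.

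Genes around the H3K4 machinery were taken as 8 lists, of which 53 of 69 genes were tested. Together 4 rose and 0 fell at an edgeR adjusted p below 0.05, beside 4.47% of all tested genes higher and 5.89% lower. At an unadjusted p below 0.05, 13 were higher and 4 lower, beside 13.3% and 14.6% of all tested genes. DESeq2 called 8 higher and 1 lower (Kdm5b), beside 8.22% and 8.44% of all genes, and limma-voom 6 and 0, beside 5.22% and 6.24%. Their median log2 fold change was 0.07, against -0.0017 over all tested genes. The 4 genes were Phf13, Ing5, Leo1 and Mtf2.

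Of the 12 readers of methylated H3K4, 2 rose, beside 4.47% of all tested genes, and the list had a median of -0.02. Phf13, a PHD finger protein that binds trimethylated H3K4, had 25.0, 18.2 and 16.4 CPM in control libraries and 53.6, 42.5 and 64.0 CPM in cKO libraries. The cKO libraries lay well above all controls, and Phf13 rose by 1.43 on the log2 scale (standard error 0.21, edgeR adjusted p = 0.00590), a call that held whichever library was left out. Ing5, a PHD finger subunit of histone acetyltransferase complexes, had 32.1, 25.5 and 23.5 CPM in control libraries and 41.1, 46.7 and 50.0 CPM in cKO libraries. It rose by 0.77 (standard error 0.17, edgeR adjusted p = 0.0207), with no overlap, and passed without control 1 or cKO 1 but not without any of the other 4 libraries.

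Of the 11 genes for H2B ubiquitination and the PAF1 complex, steps that precede H3K4 methylation during transcription, 1 rose, beside 4.47% of all tested genes. A positive difference was seen in 9 of the 11, and in 5718 of all 11488 tested genes. The list median was 0.17, and 0.088 without cKO 3. Leo1, a PAF1 complex subunit, had 86.1, 78.3 and 67.4 CPM in control libraries and 106, 111 and 128 CPM in cKO libraries. The groups were apart, and Leo1 rose by 0.57 (standard error 0.14, edgeR adjusted p = 0.0284). Of the 10 genes of PRC2, the complex that methylates lysine 27 of histone H3, and of the demethylases of that mark, 1 rose. Their median was 0.32, and 0.21 without control 1. With 1 gene called in each, neither list can be set apart from the share of 4.47%. Mtf2, which brings PRC2 to CpG islands, had 177, 217 and 182 CPM in control libraries and 279, 268 and 240.2 CPM in cKO libraries. Here too no library overlapped (log2 fold change 0.45, standard error 0.12, edgeR adjusted p = 0.0446). With single libraries left out, Leo1 and Mtf2 passed only without control library 1.

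None of the 9 genes taken for the MLL1, MLL2 or SET1 complexes passed the edgeR test (median -0.02). At an unadjusted p below 0.05, 1 was higher and 1 lower, near the shares of 13.3% and 14.6% among all tested genes, and DESeq2 called Hcfc2 higher, as it did 8.22% of all genes. Psip1, which tethers menin and MLL1 to chromatin and had the highest level, was at 262 ± 4.60 CPM in control and 289.6 ± 7.46 CPM in cKO libraries (S.D., n = 3 each; log2 fold change 0.14, edgeR adjusted p = 0.395). None of the 4 subunits particular to MLL3 and MLL4 passed by edgeR or DESeq2, and 0 had an unadjusted p below 0.05 (median 0.03). Paxip1, the PTIP subunit of these complexes, was at 141 ± 8.18 and 134 ± 10.1 CPM (log2 fold change -0.07, edgeR adjusted p = 0.724). Pagr1a, its partner, ranged from 4.06 to 28.3 CPM over the 6 libraries with no order by group.

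Among the 6 demethylases of H3K4, which oppose these enzymes, 0 passed by edgeR, with 1 higher and 1 lower at an unadjusted p below 0.05 (median -0.04), beside 13.3% and 14.6% of all tested genes. Kdm5a had 435, 291 and 241 CPM in control libraries and 512, 499 and 480.3 CPM in cKO libraries (log2 fold change 0.63, edgeR adjusted p = 0.0591), and DESeq2 and limma-voom called it higher (adjusted p = 0.00724 and 0.0368). Kdm5b, named after its values were seen, had 262, 186 and 157 CPM in control libraries and 152, 144 and 117 CPM in cKO libraries (log2 fold change -0.55, edgeR adjusted p = 0.0840), and DESeq2 called it lower (adjusted p = 0.0307). The groups did not overlap for either gene. Kdm5d, on the Y chromosome, was at 41.0 to 52.7 CPM in all 6 libraries, and the Y-linked genes Ddx3y, Uty and Eif2s3y were also counted in all 6. Each library thus held RNA from male cells, although the methods state mixed sexes. The log2 difference was 0.38 for Ddx3y (edgeR adjusted p = 0.0511) and 0.33 for Uty (edgeR adjusted p = 0.191), and Eif2s3y fell by 0.98 on the log2 scale (edgeR adjusted p = 0.0135).

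Known targets of MLL1 and the PAX factors were at or near the limit of detection. Of 8 HOXA, MEIS and related genes 1 was tested, Hoxa7, with 0.462 to 2.33 CPM (log2 fold change -0.87, 95% interval -2.29 to 0.55, edgeR adjusted p = 0.416), and the other genes of this list had at most 14 counts in any library. Of the 9 PAX genes 0 passed the filter. Pax3 had 0 counts in all 6 libraries, and Pax7 was counted 22, 6 and 27 times in the control group and 9, 2 and 6 times in the cKO group. Pax1, a factor of the thymic epithelium, had 0 counts in each control library and 13, 5 and 16 in the cKO libraries. Its difference was not tested.

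**Figure D5:**
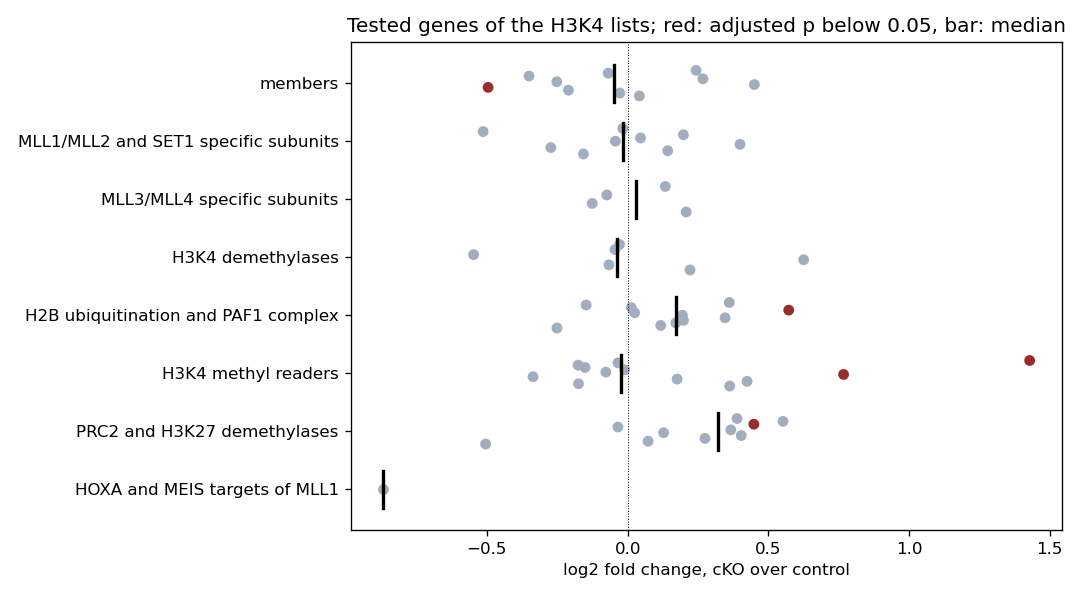
Log2 fold change, cKO over control, of the tested members and of the tested genes of 7 lists around H3K4 methylation. Red points have an edgeR adjusted p below 0.05 and black bars are medians. The 4 red points to the right are Leo1, Ing5, Phf13 and Mtf2, and the red point to the left is Kmt2d.

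The libraries' mean deviation over the 6 methyltransferases, in log2 CPM centred per gene, was highest in control 1 at 0.14 and lowest in cKO 3 at -0.17. The WRAD core was lowest in control 1 at -0.14 and highest in control 3 at 0.10. Among 9195 other tested genes with a mean of at least 5 CPM, those nearest to the methyltransferase profile were Erich1, Pld3, Pcm1, Cipc and Drosha, with a root mean square difference of 0.028 to 0.039 log2 over the 6 libraries, where the median gene had 0.255. Nearest to the WRAD profile were Sf3b5, Fuca1, Mrps14, 1110004F10Rik and Idh3b, at 0.019 to 0.028 log2, where the median gene had 0.246. Both profiles vary within the groups more than between them, and the log2 fold changes of the 10 neighbours lay between -0.08 and 0.05. The neighbours were chosen for the smallest distance, so their short distances and small changes follow from the choice. The methyltransferase profile averages genes that moved in opposite directions, such as Kmt2d and Setd1a.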

How the data were processed

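RNA-Seq libraries of sorted DP thymocytes, 3 per genotype, were grouped by their labels. The authors deposited counts per gene (reads as counted, not normalized) and FPKM (scaled to gene length and library size) for each library, together with their mean FPKM per group and the log2 ratio, p-value and FDR of their own comparison. Those means and comparison columns were not used. The submitters' processing notes name fastp 0.18.0, Bowtie2 2.2.8, HISAT2, StringTie and RSEM, without roles. Genome build, annotation and strand use in counting were not given in the sources used here. Pre-amplified cDNA was sequenced, and its effect on coverage was not tested.

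The counts went into edgeR 4.0.16 under R 4.3.3. Libraries held 18963775 to 26252248 counts, so that 1 count equalled 0.0381 to 0.0527 CPM. Genes were kept by filterByExpr (minimum count 10, minimum total 15), scaled by TMM and compared by the quasi-likelihood test on genotype alone, and p-values were adjusted by Benjamini-Hochberg over 11488 genes. Within a group, chi-square per degree of freedom between libraries was 19.8 to 68.3, so none was counted as a duplicate. The value was 57.0 and 68.3 for the pairs that held control 1, and 19.8 for controls 2 and 3. On the first principal component (38.9% of variance) the groups were separate. On the second (18.1%) control 1 was at 36.6 and controls 2 and 3 at -13.8 and -14.6. The cKO libraries ran from -32.0 to 21.2 on it. Rows of the table without a symbol, 16 in all, stayed in the fit. Positions and transcript lengths were looked up by Ensembl identifier in GENCODE release M21 (GRCm38), and upstream windows from RefSeq on GRCm38.p6. The fit was tested on simulated counts with 200 genes changed, fewer than were called in the data. It called 5 of 66 genes at an absolute log2 fold change of 0.5, 42 of 61 at 1 and 59 of 68 at 1.5. It also called 14 unchanged genes, and 0 where no gene was changed. These 14 were a larger share of the genes called than the 0.05 that the adjusted p threshold aims at. Changes of the size seen in the members were thus mostly missed in this simulation. A member that did not pass is therefore not shown to be unchanged.

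The members, lists and tests were chosen with earlier results of these data known. Genes named are the members, Paxbp1, list genes at an adjusted p below 0.05 (at most 3 per list and direction), or else the most expressed gene of a list, the sex-linked genes, of which Xist was not analysed here, and the 5 genes nearest to each mean profile (log2 CPM, prior count 2). Marker genes, Kdm5b, Hcfc2, Pagr1a, Pax1, Pax3, Pax7 and Gm49388 were named after their values were seen. Alternatives were RLE factors, total counts, no filter, a floor of 5 CPM on the mean, DESeq2 1.42.0, limma-voom (limma 3.58.1), the replicate number as a block, leaving out each library, and other lengths for levels.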

Additional observations from a re-analysis of the deposited data

How the results depend on the processing

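Kmt2d was lower, and past an edgeR or other adjusted p of 0.05, under all 7 alternatives that used the 6 libraries. With single libraries left out, the number of members called higher ran from 0 to 1 and lower from 0 to 2, where control 1 accounts for both higher counts (Setd1a, and Ash2l beside Kmt2d). Without control 1, Kmt2a turned to -0.081 and Kmt2b to 0.17 on the log2 scale, and Kmt2b to 0.080 without cKO 3. Leaving out libraries, Kmt2a ran from -0.081 to 0.17 and Kmt2b from -0.14 to 0.17, and the cause was not tested. Dpy30 was at 0.079 without control 1, and Kmt2c ran from -0.31 to -0.10 and Rbbp5 from -0.18 to -0.014. The list medians ran from 0.088 to 0.19 for H2B ubiquitination and PAF1 and from 0.21 to 0.35 for PRC2. They ran from below to above 0 for both lists of MLL and SET1 complex genes, the readers and the demethylases. For the 8 lists the number of genes called higher was 8 with the 5 CPM floor and 8 with DESeq2, and ran from 1 to 8 with a library left out. The number called lower was 1 with no filter on low counts, with DESeq2 and with the replicate block (Kdm5b in each), and ran from 0 to 1 with a library left out. Paxbp1 passed under DESeq2 (log2 fold change 0.92, adjusted p = 0.0213) and limma-voom (1.08, adjusted p = 0.0390), and ranged from 0.68 to 1.501 with a library left out, passing only without control 1. The ratio of methyltransferases to WRAD moved to 0.214 in control and 0.182 in cKO libraries with the length of the longest coding transcript, and with a library left out it ran from 0.299 to 0.379 in control and from 0.340 to 0.350 in cKO libraries. Libraries that share a replicate number did not deviate together (correlations across genes of 0.045, 0.038 and -0.030), so the numbers were not taken as pairs; with the replicate block, 570 genes were higher and 668 lower in all, against 514 and 677. Over all genes the calls fell to 42 higher and 78 lower without cKO 3 and reached 1000 and 1030 without control 1. The median of the HOXA list could not be computed with the 5 CPM floor, since Hoxa7 was then left out.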
